A study of Homo sapiens with 2 samples.

Results

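The strong autosomal sites of SOX2 on RNA were defined as the rows of 2 deposited PAR-CLIP site lists with a score of at least 1000 on chromosomes 1 to 22, so that the mitochondrial chromosome, X and Y were left out. Replicate 1 held 246 such sites among 16964, and replicate 2 held 229 among 55830, 475 of 72794 in all. Both lists came from HEK293T, a human embryonic kidney line, transfected with a plasmid for FLAG-tagged SOX2. The cells received 0.2 mM 4-thiouridine from 24 hours after transfection, for 16 hours, and were then irradiated at 365 nm with 0.4 J/cm2. Lysates were digested with RNase T1 at 1 U/ml before FLAG immunoprecipitation and at 10 U/ml on the beads, which were washed with 300 and then 500 mM KCl. The labels give 1 group with replicates 1 and 2, and no control library is used here, so neither the abundance of each RNA nor background crosslinking was measured. The protein was introduced from a plasmid, which limits the cells as a model of SOX2 at its natural level.

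SOX2 is a transcription factor whose HMG box binds DNA, known for maintaining pluripotent cells. In PAR-CLIP, 4-thiouridine built into new RNA is bound to nearby protein under ultraviolet light of long wavelength, and the pieces of RNA held by the precipitated protein are sequenced. RNase T1 cuts after guanosine, so the ends of the recovered pieces depend on where guanosines lie. Abundant structural RNAs, among them ribosomal, transfer and small nuclear RNA, are common in such libraries, and many of them have several copies in the genome.

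Which RNAs carry the strong sites was asked of these lists and is not answered here. The lists use hg19, while the reference at hand was GRCh38 without a genome sequence. No coordinate was converted, and the files name sites by number and not by gene. The sites are therefore given by their hg19 position, counted from 1, by strand, length, spacing and presence in the other list. RNA classes and site sequences were not analysed here.

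The sites were chosen by their score, so scores are a description and were not tested. The quantity behind this score is unstated, and read depth is unknown. The strong sites were 1.45% of the sites of replicate 1 and took 77.1% of its score sum. In replicate 2 they were 0.410% of the sites and took 54.6% of the score sum. Replicate 1 had a median of 2283 (quartiles 1438 and 5562). For replicate 2 the median was 2186 (quartiles 1442 and 5365). The highest score was 1560568 in replicate 1 and 702704 in replicate 2. The score was uneven within the set: the 10 highest sites held 76.3% of the strong-site score in replicate 1 and 63.4% in replicate 2.

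The threshold cut through a continuous range of scores. In replicate 1 the lowest strong sites scored 1016, 1018 and 1023, and the highest sites left out scored 999, 999 and 991. In replicate 2 the lowest strong sites scored 1002, 1008 and 1011, and the highest left out scored 995, 991 and 987.

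**Figure D1:**
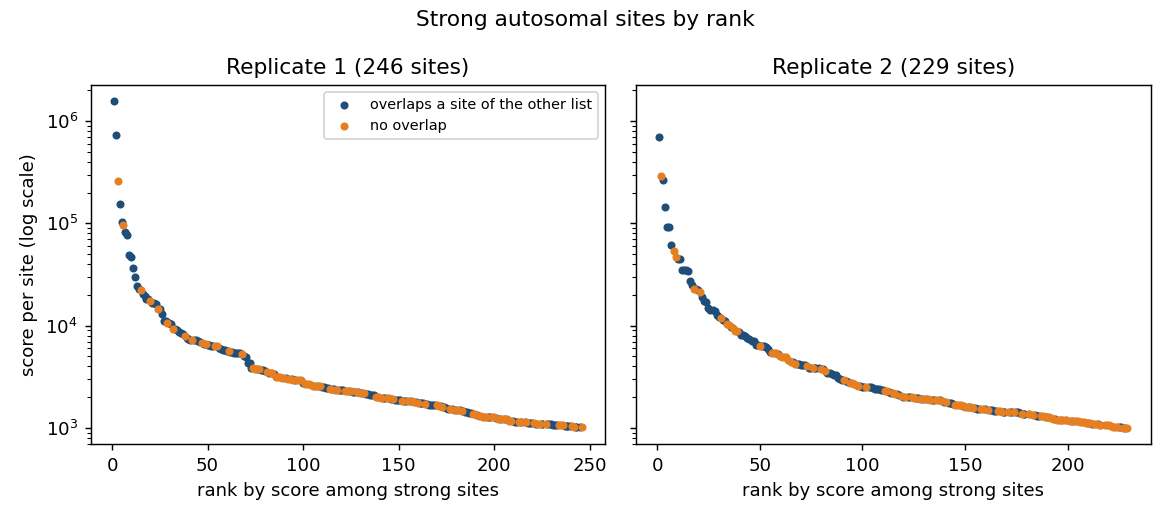
Score of each strong site (log scale) against its rank among the strong sites of its list, for replicate 1 (246 sites) and replicate 2 (229 sites); colour marks whether the site overlaps a site of the other list on the same strand. A few sites lie far above the rest, and 16 of the 20 highest of each list overlap a site of the other.

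The highest-scoring site was the same in both lists. It lay at chr6:121007819-121007843 on the plus strand in replicate 1, with a score of 1560568, and at chr6:121007817-121007841 in replicate 2, with 702704. Both versions were 25 nt long and were displaced by 2 nt. This position alone held 37.7% of the strong-site score in replicate 1 and 24.8% in replicate 2, and no other site of either list lay within 200 nt of it on that strand.

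The position that followed by the mean of its ranks was on chromosome 2, plus strand. It scored 732404 at chr2:27273706-27273729 in replicate 1 and 92813 at chr2:27273705-27273731 in replicate 2. A companion site lay upstream in each list, with 2106 at chr2:27273670-27273691 in replicate 1 and 1008 at chr2:27273674-27273687 in replicate 2. The main site held 99.7% of the score of this locus in replicate 1 and 98.9% in replicate 2.

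Other high pairs differed in which list was higher. On the minus strand of chromosome 3, chr3:51728503-51728516 scored 48764 in replicate 1, and its overlapping site of 16 nt scored 263308 in replicate 2. On the minus strand of chromosome 13, chr13:46948655-46948676 scored 153171 in replicate 1 and its partner 11364 in replicate 2. On the minus strand of chromosome 11, chr11:21022440-21022459 scored 16593 in replicate 1 and its partner 92474 in replicate 2. At chr3:113351655-113351676, plus strand, the scores were 83229 and 8097. At chr14:50320506-50320528, minus strand, they were 76474 and 12858. These 5 positions had a single strong site in each list.

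Pairs with closer scores were also found among the 10 best by mean rank. At chr11:62609106-62609141, minus strand, replicate 1 scored 24169 and replicate 2 scored 35020. At chr6:4428287-4428303, plus strand, the scores were 18085 and 34730. At chr6:26305725-26305748, minus strand, they were 47121 and 19010. At chr12:20704474-20704506, plus strand, replicate 1 scored 23042, and a longer site of 76 nt scored 61989 in replicate 2. The other 2 of the 10 pairs lay in the stretch of chromosome 21 described below.

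Across all 87 strong sites of replicate 1 whose partner in replicate 2 was also strong, 49 scored higher in replicate 1 and 38 in replicate 2. The median log2 ratio of replicate 2 to replicate 1 was -0.20, with an SD of 1.70 over pairs, and 21 pairs were more than 4-fold apart. With 1 value per list, no difference between the replicates at a site could be tested.

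**Figure D2:**
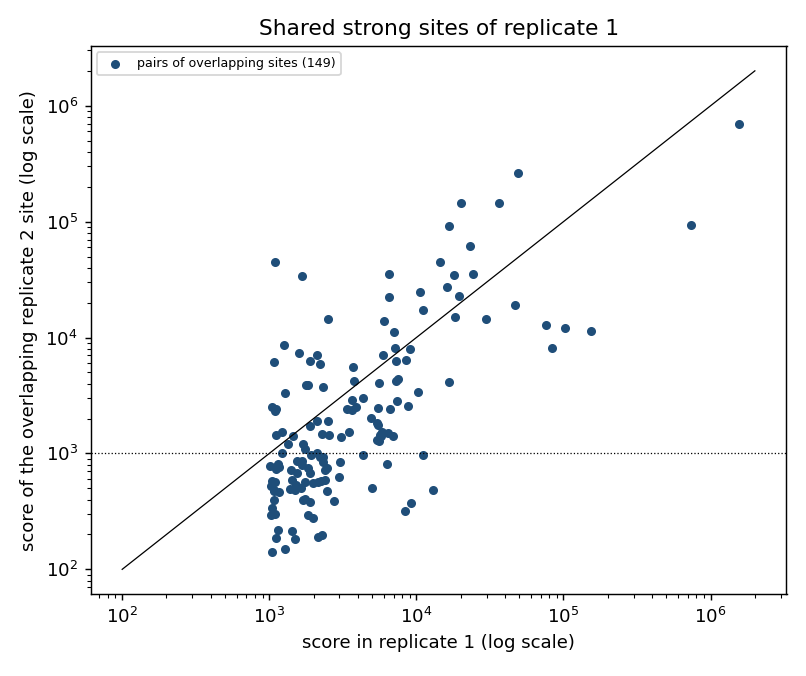
Score of the 149 strong replicate 1 sites that overlap a replicate 2 site (horizontal, log scale) against the score of that site (vertical, log scale). The solid line marks equal scores and the dotted line the threshold of 1000; 87 of the partners reach that threshold, and none scores below 141.

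Presence in the other list was far more frequent among strong sites than in the lists as a whole. In replicate 1, 149 of 246 strong sites (60.6%, 95% Wilson interval 54.3 to 66.5) shared 1 nt or more with a replicate 2 site of the same strand, against 21% of all autosomal sites of the list. In replicate 2, 127 of 229 strong sites (55.5%, interval 49.0 to 61.8) overlapped a replicate 1 site, against 6.39% of all autosomal sites. The shares of all sites were 3440 of 16357 and 3445 of 53903, so they differ mainly by the size of the list. Strong sites were longer than sites as a whole, and the shares were not adjusted for length. The intervals cover counting error over sites, and sites on one RNA share their source. Shared sites held 84.4% of the strong-site score in replicate 1 and 75.8% in replicate 2.

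The partners were themselves mostly high in their list. A partner of at least 1000 was found for 35.4% of strong sites in replicate 1 (interval 29.7 to 41.5), against 0.807% of all its autosomal sites. The share was 37.6% in replicate 2 (31.5 to 44.0), against 0.276%. A partner of at least 100 was found for 60.6% in replicate 1, against 6.72% of all its autosomal sites, and for 52.4% in replicate 2, against 2.16%. The median rank of the partner was 172 among replicate 2 sites and 136 among replicate 1 sites. By longest overlap, the lowest partner score was 141 for strong sites of replicate 1 and 6 for those of replicate 2. For replicate 2, 9 of these partners scored below 100. The shares above instead count a strong site where any overlapping site reached the score.

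Within the strong sites, the shared portion was larger at the top of the score range. In replicate 1 it was 57.5% for scores from 1000 to under 2000, 47.9% from 2000 to under 5000, 76.3% from 5000 to under 10000 and 80.6% from 10000 upwards. The second class was thus below the first, although their intervals (48.0 to 66.5 and 36.7 to 59.3) overlap. Replicate 2 had shares of 41.1%, 62.9%, 68.0% and 77.1% in these classes.

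The ends of shared strong sites often coincided with those of their partners. The 5′ ends lay within 2 nt of each other for 61.1% of shared strong sites of replicate 1 (interval 53.1 to 68.5), against 42.2% of all its shared autosomal sites. For the 3′ ends the share was 65.1% (57.2 to 72.3), against 45.6%. For replicate 2 the 5′ share was 48.8% (40.3 to 57.4), against 42.1%, and the 3′ share was 58.3% (49.6 to 66.5), against 45.5%. The 5′ interval of replicate 2 includes the value of all shared sites, and the other 3 intervals lie above theirs. Identical 3′ ends were found for 31.5% and 26.8% of shared strong sites in replicates 1 and 2, against 17.7% and 17.6% of all shared sites. Identical 5′ ends were found for 21.5% (interval 15.6 to 28.7) and 20.5% (14.4 to 28.3), against 16.6% in each list. Both of these intervals include the value of all shared sites.

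The strong sites without an overlap numbered 97 in replicate 1 and 102 in replicate 2. A replicate 2 site lay within 50 nt on the same strand of 46 of the 97 (47.4%, interval 37.8 to 57.3), against 12.4% of all unshared autosomal sites of replicate 1. In the other direction this held for 23 of the 102 (22.5%, 15.5 to 31.6), against 4.30%. Within 1 kb the counts were 71 (73.2%, 63.6 to 81.0) and 54 (52.9%, 43.3 to 62.3), against 40.3% and 24.3%. Unshared strong sites thus had a site of the other list nearby more often than unshared sites as a whole, but 26 of the 97 in replicate 1 and 48 of the 102 in replicate 2 had none within 1 kb.

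Among the 20 highest sites of each list, 4 had no overlap. In replicate 1 these were chr21:9827099-9827124 with a score of 257599, chr16:33963197-33963212 with 95969, chr5:109035454-109035467 with 22521 and chr11:85195151-85195179 with 17358. Only the site on chromosome 5, 14 nt long and on the minus strand, had no site of the other list within 1 kb. In replicate 2 they were chr21:9827167-9827187 with 291202, chr1:91852823-91852848 with 53716, chr19:36066732-36066747 with 46532 and chr21:9827457-9827504 with 22983. All 4 of these had a replicate 1 site within 1 kb.

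Strong sites were longer than the sites of their lists as a whole. Median lengths were 17 and 19 nt in replicates 1 and 2, or 18 nt ± 1.41 (SD, n = 2), against 16 and 17 nt for all autosomal sites. Sites of 30 nt or more made up 5.69% of strong sites in replicate 1 (interval 3.42 to 9.32), against 0.758% of all autosomal sites. In replicate 2 they made up 17.0% (12.7 to 22.4), against 2.82%. Sites of exactly 14 nt, the shortest length in either list, were 15.9% and 12.2% of strong sites, against 25.7% and 19.6% of all.

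Shared and unshared strong sites differed little in median length in replicate 1, at 18 and 17 nt, and by 20 against 17 nt in replicate 2. Sites of 14 nt were 10.7% (interval 6.72 to 16.7) of the shared and 23.7% (16.4 to 33.1) of the unshared strong sites in replicate 1. In replicate 2 they were 10.2% (6.08 to 16.7) and 14.7% (9.12 to 22.9). The intervals of shared and unshared sites overlap in both lists, in replicate 1 only between 16.4 and 16.7. Overlap of intervals does not show that the shares are equal, and the difference was not tested.

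The longest strong sites of replicate 1 measured 52 nt at chr6:143771002-143771053, 49 nt at chr6:26031990-26032038 and 44 nt at chr12:120730935-120730978. The site of 49 nt had a partner of the same length in replicate 2, displaced by 1 nt; the scores were 102948 in replicate 1 and 12113 in replicate 2. In replicate 2 the longest site measured 412 nt at chr21:9826612-9827023, and sites of 76 nt lay at chr12:20704431-20704506 and chr21:9827309-9827384. All 6 overlapped a site of the other list. Reads were 50 nt long, so the sites of 52, 76 and 412 nt were longer than 1 read. How the bounds of a site were set is not given, so site length cannot be read as the length of a recovered piece.

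**Figure D3:**
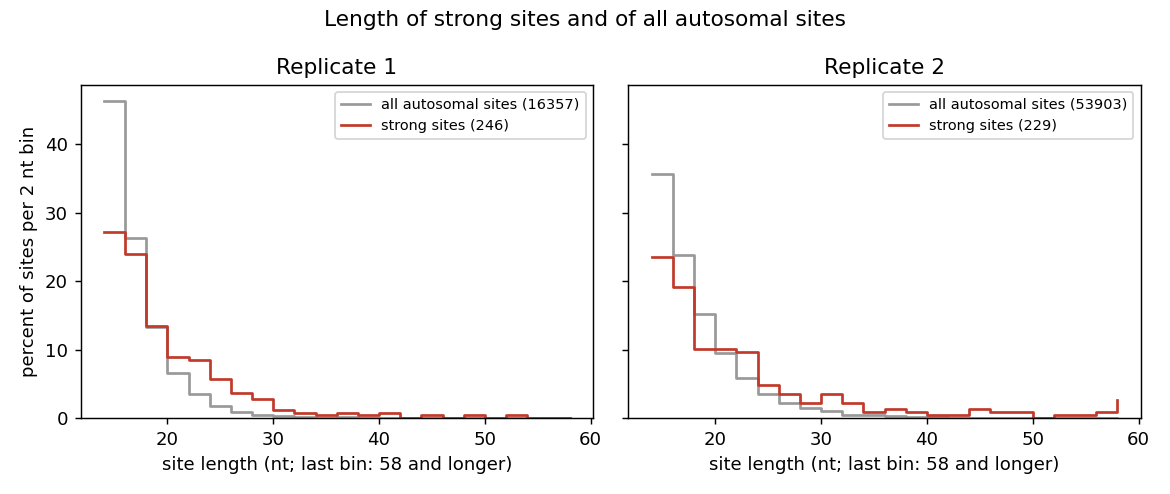
Percent of sites in each bin of 2 nt, for strong sites and for all autosomal sites of replicates 1 and 2; sites of 58 nt and longer are in the last bin. The strong sites have fewer members in the shortest bin and more between 20 and 30 nt.

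Strong sites lay close to other sites of their own list. A further site of the list lay within 100 nt on the same strand for 28.5% of strong sites in replicate 1 (interval 23.2 to 34.4), against 5.53% of all autosomal sites. In replicate 2 this held for 45.0% (38.7 to 51.5), against 19.6%. Within 1 kb the shares were 48.0% and 65.5%, against 20.99% and 52.7%. Sites of the same list on the opposite strand within 1 kb were rarer, at 2.85% of strong sites in replicate 1 and 10.5% in replicate 2, against 1.63% and 3.26% of all.

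When strong sites of both lists were joined at gaps of up to 1 kb on one strand, they formed 313 loci. Of these, 93 held strong sites of both lists, 127 only of replicate 1 and 93 only of replicate 2. These counts concern scores of at least 1000 and do not show that the other list had no site there. At chr20:37501496-37501523, plus strand, the replicate 1 site of 13049 overlapped a replicate 2 site of 482. Other loci had no site of the other list within 1 kb. No matching share for loci of all sites is given. A single strong site made up 210 loci, 1 site of each list made up 73, and 30 held at least 2 strong sites of 1 list. The 93 loci with both lists held 91.6% of the strong-site score in replicate 1 and 90.7% in replicate 2. Loci with at least 2 strong sites of a list held 36.2% ± 6.13 (SD, n = 2) of its strong-site score. These loci held 43 strong sites (17.5%) in replicate 1 and 67 (29.3%) in replicate 2. In replicate 1 much of this score lay in 1 site. There the locus on chromosome 2 gave 17.8% of the strong-site score, and its highest site held 99.7% of that locus. In replicate 2 the largest such locus was more spread. It lay on chromosome 21, held 15 strong sites and gave 22.6% of the strong-site score, and its highest site held 45.2% of it.

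At the 93 loci with both lists, the highest strong site of one list overlapped that of the other in 73. In the other 20 the highest sites were separated, by 7 to 998 nt with a median of 48 nt. The locus on chromosome 21 was one of these, with 42 nt between the highest sites of the lists.

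**Figure D4:**
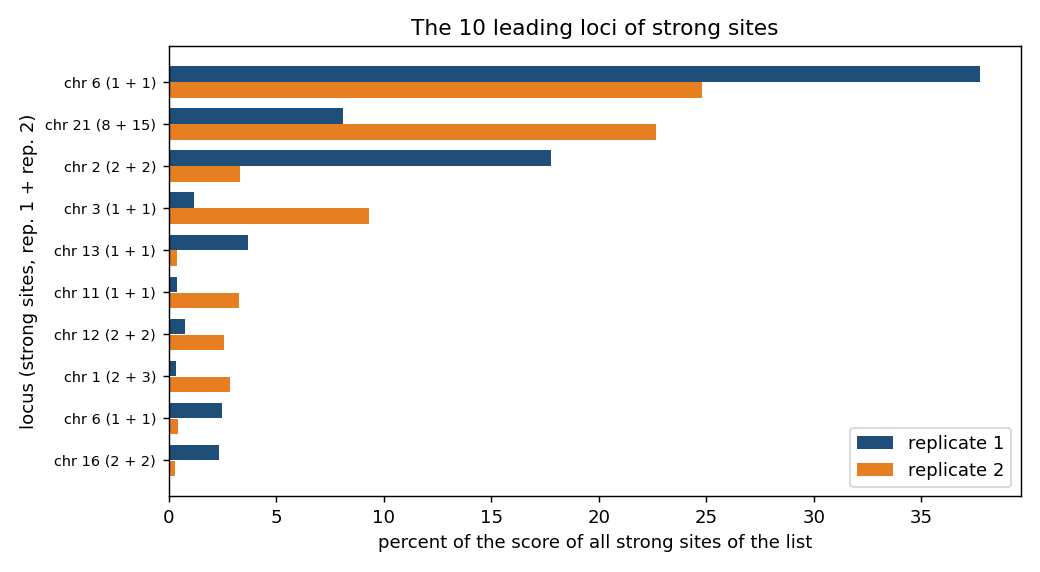
Percent of the strong-site score of each list at the 10 loci with the largest summed percent, labelled by chromosome and by the number of strong sites in replicates 1 and 2. The leading locus on chromosome 6 has 1 strong site in each list, and the one on chromosome 21 has 8 and 15.

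The 5 leading loci held 68.4% of the strong-site score in replicate 1 and 60.4% in replicate 2. They were the positions on chromosomes 6, 2, 3 and 13 given above and a crowded stretch at chr21:9825624-9827558 on the plus strand. This stretch held 8 strong sites in replicate 1 and 15 in replicate 2, and 8.09% and 22.6% of the strong-site score.

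Sites followed each other along this stretch in both lists. Counting sites of any score and 200 nt on each side, replicate 1 had 13 sites, of which 11 overlapped a replicate 2 site, and replicate 2 had 22, of which 9 overlapped a replicate 1 site. One site held 76.6% of the score of the stretch in replicate 1, the site of 257599 at chr21:9827099-9827124. In replicate 2 the site of 291202 at chr21:9827167-9827187 held 45.2%. Neither of these had an overlap in the other list.

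Further downstream several sites of the lists did overlap. Replicate 1 sites of 36678 at chr21:9827310-9827326 and 20207 at chr21:9827340-9827379 both fell within the replicate 2 site of 145790 at chr21:9827309-9827384. The replicate 1 site of 14398 at chr21:9827427-9827441 overlapped the replicate 2 site of 45083 at chr21:9827416-9827438. The 412 nt site of replicate 2 scored 44440 and covered replicate 1 sites of 1101 and 118. Boundaries between sites therefore differed between the lists, and 1 site of one list could stand for 2 of the other.

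**Figure D5:**
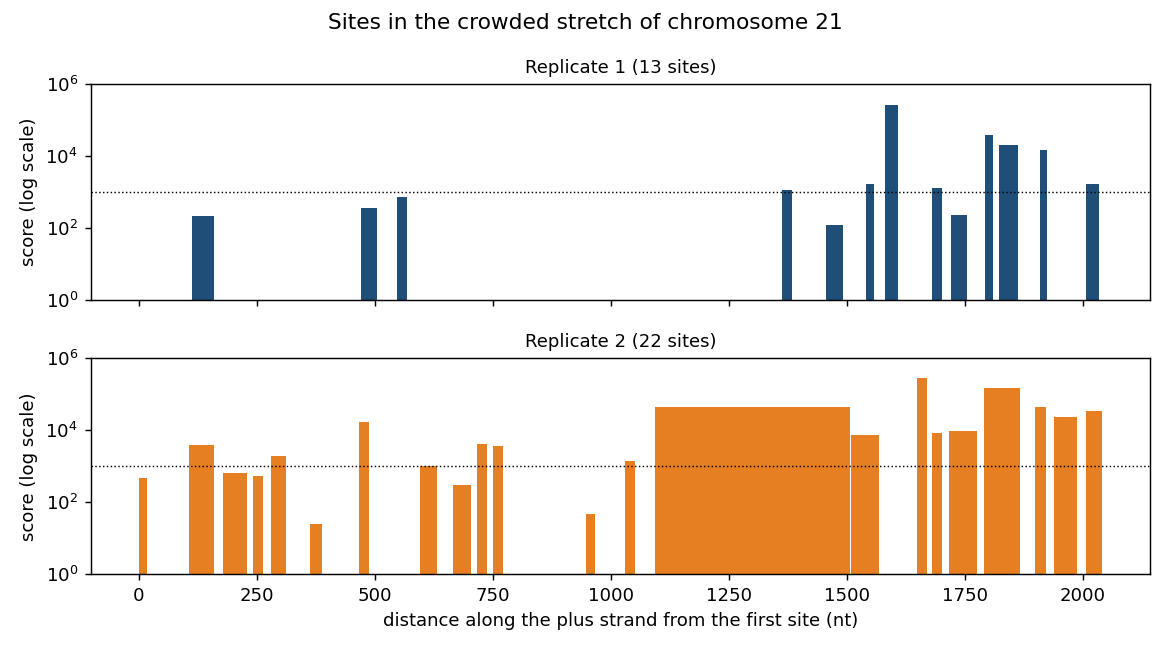
Score (log scale) of every site of replicate 1 (13 sites) and replicate 2 (22 sites) in the crowded stretch of chromosome 21, by distance along the plus strand from the first site; bar width is site length and the dotted line marks a score of 1000. The highest bars of the lists stand side by side without overlapping.

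Only 3 other loci held 5 or more strong sites in all. At chr11:62609076-62609168, minus strand, replicate 1 had 3 strong sites of 3381, 24169 and 3462, and replicate 2 had 2 of 2395 and 35020, with the same middle site highest in both. At chr1:91852823-91853089, minus strand, replicate 1 had strong sites of 6275 and 6509 and replicate 2 had sites of 53716, 22510 and 3896. At chr6:74230108-74230810, minus strand, 2 strong sites of replicate 1 and 6 of replicate 2 lay among 11 sites in each list, and the highest, 7171 and 8192, overlapped.

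The chromosomes were unevenly represented. Chromosome 6 held 38 strong sites in replicate 1 and 33 in replicate 2, or 15.4% and 14.4% of strong sites against 5.33% and 4.59% of all autosomal sites. Chromosome 21 held 3.66% and 6.99% of strong sites, against 1.36% and 1.46%. Of these sites, 8 of 9 in replicate 1 and 15 of 16 in replicate 2 lay in the crowded stretch described above. Between 26 and 29 Mb of chromosome 6, a range chosen after the values were seen, lay 22 strong sites of replicate 1 (8.94%, interval 5.98 to 13.2) and 14 of replicate 2 (6.11%, 3.68 to 10.0). This range held 0.672% and 0.436% of all autosomal sites. Of its strong sites, 9 in replicate 1 and 7 in replicate 2 overlapped a site of the other list. The strands were close to even, with 52.8% of strong sites on the plus strand in replicate 1 and 48.0% in replicate 2.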

How the data were processed

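The deposited files are 2 lists of sites, 1 per library, each with 6 unheaded columns that hold the position, a site number, a strand and a score. The authors deposited this score as whole numbers from 5 upwards. Named in the submitters' processing notes are the tools bcl2fastq and Bowtie 1.1.2 and the build hg19. How sites were called, how reads were trimmed, how reads with several matches were treated and what the score means is not given in the sources used. Reads assigned to one of several near-identical copies could move a site between loci, which was not tested. PCR duplicates make reads non-independent, so intervals cover counting error over sites only.

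Sites with a score of at least 1000 on chromosomes 1 to 22 were kept. Overlap meant at least 1 nt in common on the same strand. The partner was the site with the longest overlap. For the shares with a partner of at least 100 or 1000, the highest-scoring overlapping site was used. Loci were joined at gaps of up to 1 kb. Shares have 95% Wilson intervals (scipy 1.17.1, Python 3.11.15, pandas 2.3.3, numpy 2.4.6). Before use, the code for overlaps was tested on simulated lists. No test was made between the lists, since they are 1 group. The series' design text calls them independent experiments, with no further detail on cultures.

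The sites described singly are the 10 highest of each list, the 10 best pairs by mean rank, the 5 leading loci, unshared sites among the 20 highest, the 3 sites on each side of the threshold and the 3 longest. Loci of 5 or more strong sites and the range on chromosome 6 were added after their values were seen. The set of sites and these choices were made with earlier results of these data known. RNA classes and sequence features were planned only for an annotation and genome of hg19 and were not run.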

Additional observations from a re-analysis of the deposited data

How the results depend on the processing

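The number of strong sites depended on the threshold: at a score of at least 500 there were 456 in replicate 1 and 475 in replicate 2, and at 2000 there were 140 and 122. Taking the 250 highest sites sets the number at 250 in each list, so it cannot check the count. The shared portion in replicates 1 and 2 was 53.3% and 44.5% when at least 50% of both sites had to be in common, 79.3% and 65.5% with a gap of up to 50 nt, and 35.4% and 37.6% with a partner of 1000 or more. A threshold of 2000 gave 68.0% in replicate 2. Ignoring strand, a partner of at least 100, and a threshold of 500 left it within its interval in both lists, and so did 2000 in replicate 1. Choosing the partner with the highest score gave median partner ranks of 172 and 135 for strong sites of replicates 1 and 2, against 172 and 136. Pairs with 1 partner on each side gave 173 and 133. With 2 lists, leaving out a replicate only returns the value of the other and is no check. These values were 31.9% and 40.5% of the strong-site score at loci with at least 2 strong sites of a list. The median lengths were 17 and 19 nt. Joining at 100 nt or 10 kb, and other thresholds for length, stayed within 1 SD. The overlap gives no value without a replicate. The alternatives for RNA class and sequence were not run, for want of an hg19 reference. No paired analysis was possible because there is only 1 group. Depth is unknown, so no limit from counting reads is given.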
